A study of Homo sapiens with 12 samples.

Results

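The D-type cyclins, their kinase partners CDK4 and CDK6, the retinoblastoma protein gene RB1, the inhibitors CDKN2A, CDKN2B and CDKN2C, and MTAP, which lies beside CDKN2A on chromosome 9, were followed across 12 Affymetrix arrays of 2 established human mantle cell lymphoma lines. Members were chosen by gene symbol in the platform annotation. Of the 10 listed genes, 9 were found, with 29 probe sets, among 19775 genes and 41091 probe sets that each carry 1 symbol, control probe sets left out. CDKN2C matched no probe set and is not analysed here. The labels give a TRAF2 nonsense mutation for Z-138 and a TRAF3 deletion for Maver-1, so every group carries 1 of these lesions. Hairpins under doxycycline control came in 3 constructs per line. NTC is a non-targeting control, and NIKsh#1 and NIKsh#2 target MAP3K14, the gene of the kinase NIK. The 6 puromycin-selected cultures were kept for 7 days with 0 or 100 ng/ml doxycycline, which gave 8 groups by line, knockdown and dose, with 2 arrays in each NIKsh group and 1 in each NTC group. No label says whether a culture came from a separate transduction or was 1 clone, and the p-values speak only to how far these cultures spread.

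D-type cyclins bind and activate CDK4 and CDK6, and the active kinases phosphorylate RB1, which releases E2F transcription factors and lets a cell enter S phase. CDKN2A and CDKN2B encode p16 and p15, which bind CDK4 and CDK6 and keep them from the cyclins, and CDKN2A also encodes p14ARF, which restrains MDM2. Mantle cell lymphoma is a B cell tumour known for a translocation that places CCND1 on chromosome 11 under an immunoglobulin enhancer. Loss of CDKN2A is common in its aggressive forms, and MTAP, an enzyme of methionine salvage, is often lost with it. The kinase NIK drives alternative NF-kB signalling, and both TRAF proteins named above take part in its degradation.

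Of the members, 6 (CCND1, CCND3, CDK4, CDK6, RB1 and MTAP) had a probe set whose mean signal lay above the filter of 12.55 used for tests, and 13 of the 29 member probe sets did (44.8%, against 55.5% of all probe sets with 1 symbol). The median signal of an array ran from 10.6 to 14.1. The 3' to 5' signal ratio of the ACTB control, a sign of how complete the RNA is, ran from 2.33 to 6.88. B cell markers were present in both lines, with 5 of 5 markers on the array above the filter and a summed signal of 4178 to 6882 in Z-138 and 5450 to 6580 in Maver-1. Of 6 T and NK cell markers, 2 were above the filter in Z-138 (sum 82.2 to 206.4) and 0 in Maver-1 (sum 16 to 31.1), with CD3D and CD3E below it in both. The 2 were CD3G, a chain of the T cell receptor complex, at 56.6 to 177.5 in Z-138 and 0.8 to 7.2 in Maver-1, and NKG7, at 9.3 to 22 and 6.9 to 16. Of 5 monocyte markers 0 were above it in Z-138 (sum 13.1 to 32.6) and 1 in Maver-1 (sum 14 to 32.6), which was LYZ, the gene of lysozyme, at 9.8 to 25.3, with CD14 between 0.3 and 3.1 throughout. Of 8 stromal and epithelial markers 3 were above it in Z-138 (sum 202.9 to 664.9) and 5 in Maver-1 (sum 902 to 1235). Among them the collagen gene COL1A1 read 76.1 to 244.2 in Z-138 and 20.6 to 46.9 in Maver-1, PECAM1, an adhesion molecule of endothelium and blood cells, 44.8 to 397 and 549.7 to 929.1, and EPCAM, an adhesion molecule of epithelium, 1.3 to 3.8 and 173 to 314.4. Their part in the differences between the lines was not tested. In bulk RNA, fewer cells of a kind and less RNA per cell cannot be told apart.

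The targeted gene was checked first. MAP3K14 signal in Z-138 was 55.2 without and 33.3 with doxycycline under NIKsh#1, 52 and 49.2 under NIKsh#2, and 46.4 and 55.4 under NTC. In Maver-1 it was 86.9 and 63.4 under NIKsh#1, 79.3 and 55.7 under NIKsh#2, and 77.2 and 132.7 under NTC. Signal was lower with doxycycline in all 4 NIKsh cultures, least so in Z-138 NIKsh#2 (log2 change -0.075), and higher in both NTC cultures. The log2 change over the 4 NIKsh cultures was -0.42 ± 0.18 (standard error, as in all values below marked ±). It did not pass the threshold (limma, adjusted p = 0.529). Neither did -0.38 ± 0.25 in the Z-138 NIKsh cultures or -0.46 ± 0.25 in the Maver-1 ones (limma, adjusted p = 0.501 and 0.998). NIKsh minus NTC was -0.92 ± 0.32 and was not called (limma, adjusted p = 0.88).

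Between the untreated lines the members differed widely. MTAP, CDK6 and RB1 were higher in Z-138 and CCND1, by the probe set that stands for it, was higher in Maver-1, whereas CDK4 differed by less than the spread between cultures. This made 4 of 6 tested members past an adjusted p of 0.05 in limma (3 cultures against 3), but 60.2% of all 11548 tested genes passed the same comparison, 25.5% higher and 34.8% lower in Z-138. MTAP passed the filter through Z-138 alone, so it had to differ and its place in that count shows nothing. The median log2 difference, Z-138 minus Maver-1, was 0.33 over the 6 members and -0.08 over all tested genes. That median counts MTAP too, so it shows no shift of the members as a set. The others were at 1.76 (CDK6), 0.65 (RB1), 0.003 (CDK4), -0.34 (CCND3) and -1.41 (CCND1). After doxycycline the picture was narrow. CDK6 was the only member called in any doxycycline comparison, lower with doxycycline in the Z-138 NIKsh cultures.

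CCND1, the cyclin of the defining translocation, has 2 probe sets, and they ordered the lines in opposite ways. Probe set 208711_s_at read 2070.8 without and 2323.1 with doxycycline in Z-138 NTC, 2115.6 and 1647 in Z-138 NIKsh#1, and 1930.6 and 1874.8 in Z-138 NIKsh#2. Maver-1 gave 1142.1 and 1226.3 (NTC), 1354.8 and 1026.1 (NIKsh#1) and 1394.8 and 1114.3 (NIKsh#2). All 6 Z-138 arrays were above all 6 Maver-1 arrays. Probe set 208712_at, which had the higher mean log2 signal and stands for the gene, read 882.3 and 661.7 in Z-138 NTC, 1159.2 and 1264 in Z-138 NIKsh#1, and 1152.6 and 496.7 in Z-138 NIKsh#2. Maver-1 gave 2804.2 and 2894.6 (NTC), 2814.2 and 2599.8 (NIKsh#1) and 2808.5 and 3030.6 (NIKsh#2). Here all 6 Maver-1 arrays were above all 6 Z-138 arrays, and the 3 untreated Maver-1 cultures lay within a few units of each other.

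**Figure D1:**
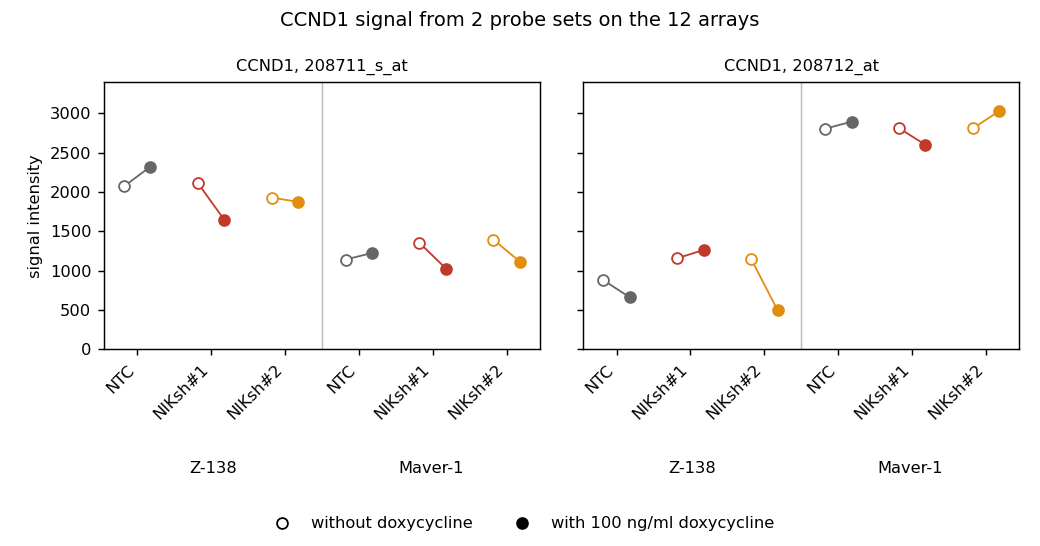
Signal intensity of CCND1 (vertical axis, linear from 0) on the 12 arrays for its 2 probe sets, with 1 open point per culture without and 1 filled point with 100 ng/ml doxycycline, joined by a line. Z-138 lies above Maver-1 for 208711_s_at (1647 to 2323.1 against 1026.1 to 1394.8) and below it for 208712_at (496.7 to 1264 against 2599.8 to 3030.6).

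In the untreated cultures the log2 difference, Z-138 minus Maver-1, was 0.66 ± 0.09 for CCND1 probe set 208711_s_at (limma over every probe set, adjusted p = 0.000138) and -1.41 ± 0.10 for 208712_at (adjusted p = 1.2e-06). The log2 ratio of the first probe set to the second, of which only the difference between lines can be read, was 0.948 ± 0.253 (SD, n = 3) in untreated Z-138 and -1.12 ± 0.154 (SD, n = 3) in untreated Maver-1. Every Z-138 array had a ratio from 0.382 to 1.916 and every Maver-1 array one from -1.443 to -1.01. The exact two-sided permutation test of this difference of 2.07 gave p = 0.1, the smallest that 3 cultures against 3 allow. Among 6073 genes with at least 2 probe sets above the filter, 198 (3.26%) had probe sets that passed in opposite directions between the lines, and in 98 of them (1.61%) both differences were over 0.5. With the mean of both probe sets for the gene, the CCND1 difference was -0.38 (adjusted p = 0.00123). CCND1 transcripts of different length are known in this tumour, and the positions of the probe sets within the transcript were not given in the sources used here. The ACTB 3' to 5' ratio was 2.33 to 2.92 in untreated Z-138 and 3.66 to 6.88 in untreated Maver-1, and its part in the CCND1 difference was not tested.

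With doxycycline, CCND1 did not pass in the NIKsh cultures by either probe set. By 208711_s_at its log2 change was -0.36 and -0.04 for Z-138 NIKsh#1 and NIKsh#2, -0.40 and -0.32 in the Maver-1 ones, and 0.17 and 0.10 in the NTC cultures of Z-138 and Maver-1. All 4 NIKsh changes were below both NTC changes. The same order held for CDK4 and for some CDK6 probe sets, and its share over all genes was not counted. The mean over the NIKsh cultures was -0.28 ± 0.08 (limma over every probe set, adjusted p = 0.533), and NIKsh minus NTC was -0.42 ± 0.14 (adjusted p = 0.935, exact two-sided permutation p = 0.133, the smallest that 4 against 2 cultures allow). By 208712_at the changes had no common direction, with -1.21 in Z-138 NIKsh#2 set against 0.13 in Z-138 NIKsh#1. The Z-138 NIKsh mean by that probe set was -0.54 ± 0.24 (adjusted p = 0.309). That call depended on single cultures, with adjusted p = 1.2e-05 at -1.21 without Z-138 NIKsh#1, 0.71 at 0.13 without Z-138 NIKsh#2, and 0.00117 or 0.00239 at an unmoved -0.54 without Maver-1 NIKsh#1 or NIKsh#2, which enter only through the spread.

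CCND2, a cyclin of normal B cells, was low in both lines. Its 4 probe sets read 0.1 to 15.1, and 2 of 48 values reached the filter. Those 2 were Z-138 NIKsh#1 and NIKsh#2 with doxycycline by probe set 200953_s_at, at 14.7 and 15.1 against 7 and 6 without it, while Z-138 NTC read 3.9 and 4.1. The Z-138 NIKsh change by that probe set was 0.92 ± 0.32 and was not called (limma over every probe set, adjusted p = 0.352). The other probe sets went the other way there, with 231259_s_at at -0.74 ± 0.29, 200951_s_at at -0.14 ± 0.31 and 200952_s_at at -0.08 ± 0.37, and none was called. The gene was below the filter and was not tested in the fit of genes. In the fit over every probe set, 231259_s_at passed between the untreated lines at 0.94 ± 0.27 (limma, adjusted p = 0.0198), on signals of 3, 6.6 and 5.1 in Z-138 and 2.1, 0.3 and 0.9 in Maver-1 that all lay under the filter.

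CCND3, the cyclin of germinal centre B cells, was measured well above the filter by 201700_at. Signal ran from 153.2 to 347.5 in Z-138 (median 216.9) and from 152.3 to 255.3 in Maver-1 (median 238.2), and the lines overlapped. Without doxycycline the 3 Z-138 cultures read 153.2, 214.8 and 210.4 and the 3 Maver-1 cultures 239.8, 255.3 and 230. The untreated difference, Z-138 minus Maver-1, was -0.34 ± 0.14 on the log2 scale and missed the threshold (limma, adjusted p = 0.0587). It passed without Z-138 NIKsh#1 (-0.42, adjusted p = 0.041) or without Z-138 NIKsh#2 (-0.41, adjusted p = 0.048), and it was 0.006 (adjusted p = 0.978) when the culture means over both doses were compared. With the mean of its 2 probe sets for the gene it was -0.72 (adjusted p = 0.00103). The second probe set, 1562028_at, read 1 to 10.1, below the filter throughout, and passed between the untreated lines at -1.10 ± 0.29 (fit over every probe set, adjusted p = 0.0129). The log2 changes with doxycycline were 0.66, 0.03 and 0.72 in Z-138 (NTC, then NIKsh#1, then NIKsh#2) and 0.04, -0.11 and -0.59 for Maver-1 in the same order. CCND3 thus had changes above 0 in all 3 Z-138 cultures, the control included, and the NIKsh means did not pass, at 0.37 ± 0.23 for Z-138 and -0.35 ± 0.23 for Maver-1 (limma, adjusted p = 0.457 and 0.998), nor did their difference of 0.72 ± 0.32 (adjusted p = 0.587).

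CDK4, the kinase partner of all D cyclins, hardly varied. Its probe set 202246_s_at read 2240.1 to 2615.3 in Z-138 (median 2454.4) and 2285.9 to 2548.8 in Maver-1 (median 2435.6). The untreated difference between the lines was 0.003 ± 0.061 on the log2 scale, with a 95% interval of -0.13 to 0.14 (limma, adjusted p = 0.965). With doxycycline its 6 log2 changes lay between -0.19 and 0.15, and the mean over the 4 NIKsh cultures was -0.08 ± 0.06, with a 95% interval of -0.22 to 0.05 (adjusted p = 0.763).

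CDK6, the second kinase partner of the D cyclins, was higher in Z-138 than in Maver-1 without doxycycline, and with it the signal was higher in Z-138 NTC and lower in both Z-138 NIKsh cultures. Probe set 224847_at, which stands for the gene, read 236.7 without and 741.5 with doxycycline in Z-138 NTC, 157.2 and 31.6 in Z-138 NIKsh#1, and 123 and 66.8 in Z-138 NIKsh#2. Maver-1 gave 49.4 and 87.3 (NTC), 50.2 and 44.9 (NIKsh#1) and 42 and 35.9 (NIKsh#2). Without doxycycline all 3 Z-138 cultures were above all 3 Maver-1 cultures. With it, Z-138 NTC was the highest array of the series and Z-138 NIKsh#1 the lowest, and Z-138 NIKsh#2 was below Maver-1 NTC, so the lines overlapped. Single arrays give the order of these levels, and there is no spread within a culture to set beside the gaps.

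**Figure D2:**
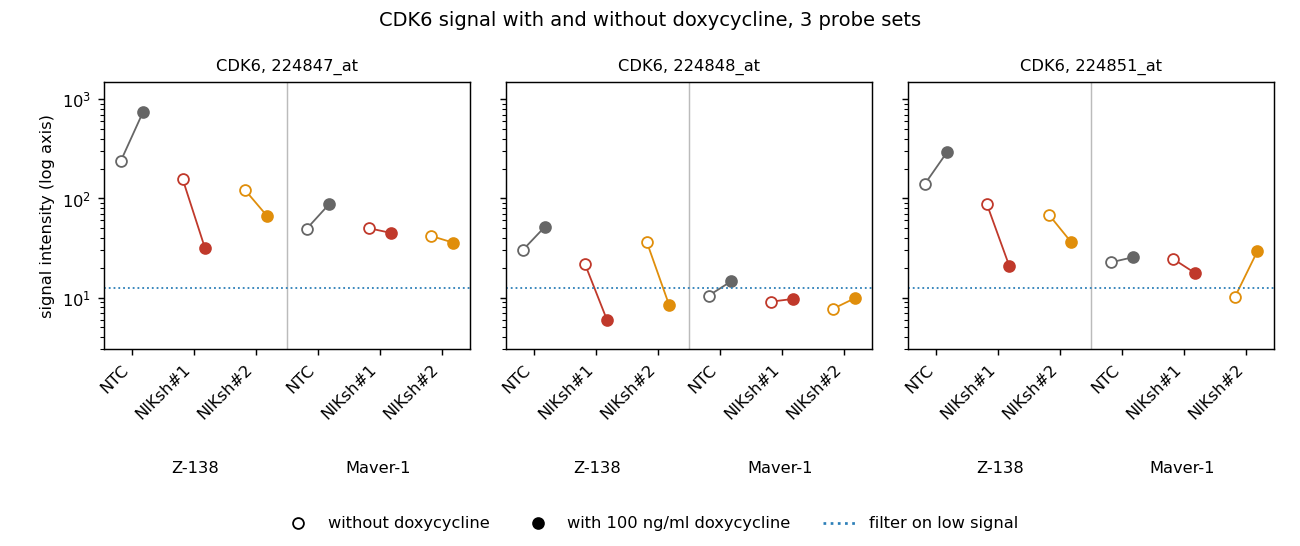
Signal intensity of CDK6 (vertical axis, log scale) on the 12 arrays for the 3 probe sets above the filter, with 1 open point per culture without and 1 filled point with 100 ng/ml doxycycline, joined by a line. The dotted line is the filter at 12.55. Z-138 NTC goes up with doxycycline and both Z-138 NIKsh cultures go down for each probe set, from 236.7 to 741.5, 157.2 to 31.6 and 123 to 66.8 for 224847_at.

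The untreated difference, Z-138 minus Maver-1, was 1.76 ± 0.21 for CDK6 on the log2 scale (limma, adjusted p = 9.96e-06), a 3.38-fold difference on the scale with the pseudocount. Probe sets 224848_at and 224851_at gave 1.41 ± 0.26 and 2.21 ± 0.33 in the fit over every probe set (adjusted p = 0.00147 and 0.000305). The mean of 224848_at lay above the filter only through Z-138, since it read 5.9 to 52.1 there and 7.7 to 14.6 (median 9.8) in Maver-1. The other 4 CDK6 probe sets read 0.1 to 15.1, and of them 235287_at passed at 0.77 ± 0.23 (adjusted p = 0.0234). Over all member probe sets, 15 of 29 passed this comparison, against 31.6% of all probe sets. That count takes probe sets of 1 gene as separate, with several each from MTAP and CDK6. It also holds both CCND1 probe sets, which passed in opposite directions, and some probe sets under the filter. It thus shows nothing about the members as a set. The mean over all 7 CDK6 probe sets gave a difference of 0.93 (adjusted p = 0.00181).

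With doxycycline CDK6 fell in the Z-138 NIKsh cultures. The log2 change was -2.21 in NIKsh#1 and -0.85 in NIKsh#2, with a mean of -1.53 ± 0.32 and a 95% interval of -2.25 to -0.82, or 2.89-fold lower (limma, adjusted p = 0.0461). This was 1 of 6 tested members, against 2.14% of all tested genes called in that comparison and 1.08% called lower. The call lay near the threshold, and without Z-138 NIKsh#1 the change was -0.85 (adjusted p = 0.0857). It was not called with a pseudocount of 1 (adjusted p = 0.0517), with every gene kept (0.0812), or with the mean of the 7 probe sets at -0.71 (0.243). In the fit over every probe set the adjusted p was 0.116 for 224847_at, 0.0918 for 224848_at at -1.64 ± 0.32, and 0.296 for 224851_at at -1.39 ± 0.44. All 3 probe sets were lower with doxycycline in both Z-138 NIKsh cultures and higher in Z-138 NTC. The summed signal of the stromal and epithelial markers was 472.6 to 542.4 without and 202.9 to 215.8 with doxycycline in the Z-138 NIKsh cultures. In Z-138 NTC it was 424.1 and 664.9. Of the 5 tested, PECAM1 and COL1A1 fell in the Z-138 NIKsh cultures, by log2 changes of -1.77 ± 0.31 and -1.32 ± 0.25 (limma, adjusted p = 0.0238 and 0.0343). The others had no common direction and were not called. EPCAM was at -0.09 ± 0.27, KRT8 at 0.28 ± 0.28 and KRT18 at 1.08 ± 0.31 (limma, adjusted p = 0.908, 0.671 and 0.124). The B cell markers summed to 5146 to 5692 without and 6480 to 6882 with doxycycline there, and to 5074 and 4178 in Z-138 NTC, and 0 of 5 passed. The part of these markers in the CDK6 result was not tested.

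In the Maver-1 NIKsh cultures CDK6 had log2 changes of -0.15 and -0.21 by 224847_at, with a mean of -0.18 ± 0.32 and a 95% interval of -0.90 to 0.54 (limma, adjusted p = 0.998). No member passed there, and 0% of all tested genes did (459 genes at an unadjusted p under 0.05). By 224848_at and 224851_at the Maver-1 NIKsh means were 0.17 ± 0.32 and 0.44 ± 0.44. The difference between the lines in the NIKsh change, Z-138 minus Maver-1, was -1.35 ± 0.45 for CDK6 and did not pass (adjusted p = 0.457), with 0 of 6 members against 0.121% of all genes called. It passed without Z-138 NIKsh#2 (-2.03, adjusted p = 0.00942), and CCND1 passed in that comparison without Z-138 NIKsh#1 (-1.21, adjusted p = 0.000297). Over the 4 NIKsh cultures of both lines, CDK6 had a mean change of -0.86 ± 0.31 (adjusted p = 0.443), and 0 of 6 members passed, against 0.0433% of all genes.

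In the control cultures the CDK6 signal was higher with doxycycline. Z-138 NTC had a log2 change of 1.63 and in Maver-1 NTC one of 0.79, with a mean of 1.21 ± 0.45 that did not pass (limma, adjusted p = 0.895). No member passed in the NTC cultures and 0% of all genes did (387 at an unadjusted p under 0.05). NIKsh minus NTC was -2.07 ± 0.55 for CDK6, with a 95% interval of -3.28 to -0.85, and was not called after adjustment (unadjusted p = 0.00343, adjusted p = 0.876). There, too, 0% of all genes passed (627 at an unadjusted p under 0.05). The exact two-sided permutation test of the 6 culture changes gave p = 0.133, the smallest it allows, since no NIKsh change reached either NTC change. In an added comparison, chosen after the data were seen, NIKsh minus NTC was taken within a line. It was -3.17 ± 0.55 for CDK6 in Z-138 (adjusted p = 0.0477), 1 of 6 members against 0.589% of all genes, and -0.97 ± 0.55 in Maver-1 (adjusted p = 1). Each rests on 1 NTC culture whose own spread could not be measured, and the comparison over both lines above was not called. For 224851_at the NIKsh and NTC changes overlapped, since Maver-1 NIKsh#2 read 10.2 without and 29.4 with doxycycline. The ACTB 3' to 5' ratio was higher with doxycycline in all 3 Z-138 cultures, where NTC had 2.33 and 6.34, NIKsh#1 2.86 and 4.62, and NIKsh#2 2.92 and 5.09. For Maver-1 the ratio was 6.88 and 4.43 (NTC), 4.68 and 4.32 (NIKsh#1), and 3.66 and 3.80 (NIKsh#2). With that ratio as a covariate the Z-138 NIKsh change was -3.98 ± 2.55 (adjusted p = 1), where the ratio and doxycycline cannot be told apart within Z-138.

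The windows before the 2 RefSeq starts of CDK6 (GRCh38.p14, minus strand) are shown because CDK6 was the member called with doxycycline in the Z-138 NIKsh cultures, whose hairpins target the gene of a kinase that acts on NF-kB. They span chr7:92836574-92836823 and chr7:92833960-92834209 and are written 5′ to 3′ toward the start. No letters are capitalised, because neither window held a match to the NF-kB consensus or to the E2F letters TTTGGCGC or TTTCCCGC on either strand. Over 35116 RefSeq windows of 250 bases, 9.96% held an NF-kB match and 1.93% an E2F match. A match is a run of letters and not a measured site, and the lack of one says nothing of the factor.
CDK6 upstream window 1: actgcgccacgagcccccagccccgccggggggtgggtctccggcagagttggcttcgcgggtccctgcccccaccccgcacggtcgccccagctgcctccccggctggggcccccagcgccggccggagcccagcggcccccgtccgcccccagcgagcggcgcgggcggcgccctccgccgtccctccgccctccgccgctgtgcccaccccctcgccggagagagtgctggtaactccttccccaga
CDK6 upstream window 2: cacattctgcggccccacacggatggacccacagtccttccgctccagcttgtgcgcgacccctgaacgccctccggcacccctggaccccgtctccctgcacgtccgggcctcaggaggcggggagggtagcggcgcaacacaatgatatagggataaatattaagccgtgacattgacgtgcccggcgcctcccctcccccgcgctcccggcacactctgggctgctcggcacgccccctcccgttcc

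RB1, the substrate of these kinases, was higher in Z-138. Its probe set 203132_at read 2166.9 without and 1684.5 with doxycycline in Z-138 NTC, 2296.4 and 2372.8 with NIKsh#1, and 2150.7 and 2503.4 with NIKsh#2. Maver-1 gave 1439.1 and 1387.9, 1196.3 and 1515.5, and 1600.4 and 1492.2 in the same order. All Z-138 arrays were above all Maver-1 arrays, and the untreated log2 difference was 0.65 ± 0.09 (limma, adjusted p = 4.8e-05). The second probe set, 211540_s_at, gave 1.10 ± 0.32 in the same direction (limma over every probe set, adjusted p = 0.0226), with overlap between the lines once doxycycline arrays are counted. In Z-138 NTC that probe set read 68.3 without and 13 with doxycycline, against 30.9 and 47.1 with NIKsh#1 and 36.5 and 60.6 with NIKsh#2. By 203132_at the doxycycline change was 0.13 ± 0.09 over the NIKsh cultures and -0.21 ± 0.12 over the NTC cultures, and neither passed (limma, adjusted p = 0.75 and 0.895).

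On chromosome 9, MTAP had the largest log2 difference between the lines among the tested members, whereas CDKN2A and CDKN2B were low in both. MTAP probe set 204956_at read 229.6, 294.6 and 272.8 in untreated Z-138 (NTC, then NIKsh#1, then NIKsh#2) and 1.5, 0.4 and 0.2 in untreated Maver-1. Probe set 231984_at, which stands for the gene, read 225.1, 220.1 and 265.9 against 3.4, 2.2 and 2.9. The Maver-1 values were all far under the filter, and doxycycline arrays kept the same order, at 155.8 to 327.1 in Z-138 and 0.3 to 3.4 in Maver-1 over all arrays. MTAP thus passed the filter only through Z-138, which fixes that it differed. The untreated log2 difference was 5.36 ± 0.19 for 231984_at (limma, adjusted p = 1.07e-10) and 6.19 ± 0.23 for 204956_at (fit over every probe set, adjusted p = 8.55e-09). Both are on a scale with a pseudocount that understates a change from so low a signal, and with a pseudocount of 16 the first was 3.74. Of the other MTAP probe sets, 216685_s_at (48.8 to 64.4 against 2.9 to 9.1), 211363_s_at (24.7 to 44.1 against 3.5 to 9.7) and 217134_at (7.3 to 17 against 0.5 to 1.6) also had no overlap between the lines. Only 211364_at overlapped, at 0.7 to 7.4 in Z-138 and 0.6 to 7.9 in Maver-1. The doxycycline change of MTAP was -0.10 ± 0.22 over the NIKsh cultures and -0.74 ± 0.31 over the NTC cultures (limma, adjusted p = 0.94 and 0.895), and in Maver-1 such changes rest on signals near 0.

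CDKN2A had 3 probe sets that read 0.2 to 8.5, with 0 of 36 values at the filter. Probe set 209644_x_at read 1.6 to 8.5 in Z-138 and 0.8 to 7.3 in Maver-1, and the lines overlapped. CDKN2B had 2 probe sets that read 0.1 to 9.6, with 0 of 24 values at the filter, and 207530_s_at read 1.9 to 9.6 in Z-138 and 1.3 to 8.8 in Maver-1. Neither inhibitor was tested in the fit of genes, and in the fit over every probe set none of their 5 probe sets passed between the lines. None was called in a doxycycline comparison either. For NIKsh minus NTC, CDKN2B was at 1.65 ± 0.47 by 207530_s_at and 0.22 ± 0.40 by 236313_at (limma over every probe set, adjusted p = 0.935 and 0.962). By 207530_s_at untreated NIKsh minus NTC was -1.17 ± 0.33 (limma over every probe set, adjusted p = 0.996). All these signals lay under the filter.

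**Figure D3:**
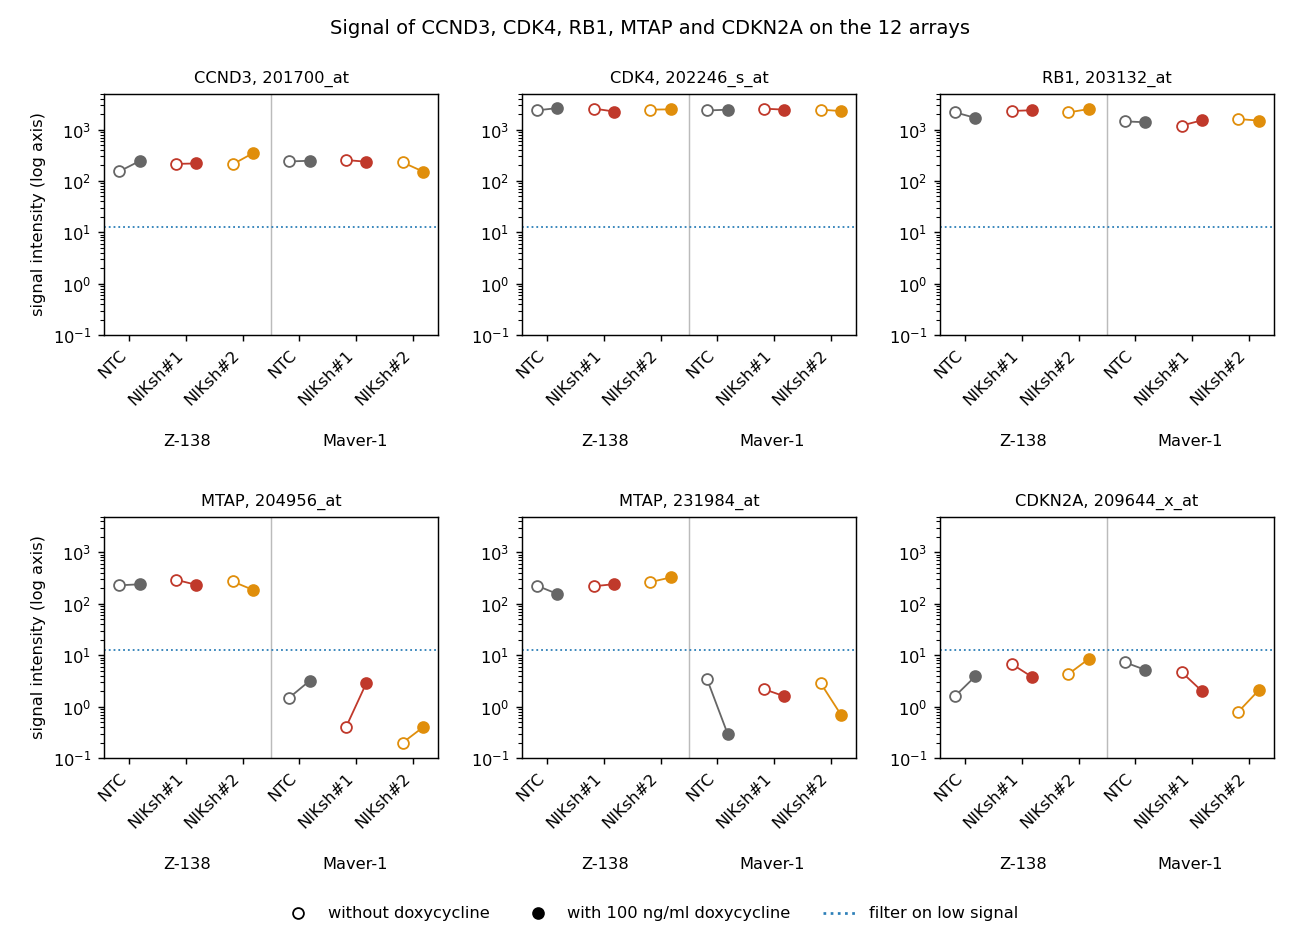
Signal intensity (vertical axis, log scale) of CCND3, CDK4, RB1, MTAP (2 probe sets) and CDKN2A on the 12 arrays, with 1 open point per culture without and 1 filled point with 100 ng/ml doxycycline, joined by a line. The dotted line is the filter at 12.55. MTAP lies at 155.8 to 327.1 in Z-138 and 0.2 to 3.4 in Maver-1 over both probe sets, CDKN2A is below the filter on every array, and CDK4 stays between 2240.1 and 2615.3.

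The upstream window of MTAP is shown because it alone of 14 member windows held a match to the NF-kB consensus. These windows covered 8 members, CDKN2C included, and the RefSeq entries used here held none for CCND1 or CCND2. Over all 35116 windows 9.96% held such a match, and 1 of 14 is not above that share. The MTAP window spans chr9:21802386-21802635 (GRCh38.p14, plus strand), and the capitals mark the match, which begins 72 bases before the start.
MTAP upstream window: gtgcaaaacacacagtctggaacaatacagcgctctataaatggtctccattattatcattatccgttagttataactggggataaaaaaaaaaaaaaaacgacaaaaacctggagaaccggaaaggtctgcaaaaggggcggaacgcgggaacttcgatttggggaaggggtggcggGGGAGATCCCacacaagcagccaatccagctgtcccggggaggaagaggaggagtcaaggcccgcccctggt

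Of the genes around MTAP and CDKN2A, most of those above the filter were measured in both lines, and 1 had the reverse pattern. In chromosome order, FOCAD and KLHL9 before MTAP and CAAP1, PLAA and IFT74 after CDKN2B were measured in both lines. FOCAD read 98.5 to 132.3 in Z-138 and 91.1 to 119.1 in Maver-1, and KLHL9 read 179 to 241.8 and 162.3 to 218.2. HACD4, an enzyme of very long chain fatty acid synthesis that lies between them, was that gene, at 2.9 to 7.9 in Z-138 and 201.8 to 244.6 in Maver-1. It passed the filter only through Maver-1, and its untreated log2 difference was -4.59 ± 0.18 (limma, adjusted p = 2.69e-10), while CAAP1 and PLAA were higher in Z-138 by 0.50 ± 0.09 and 0.42 ± 0.12 (adjusted p = 0.000263 and 0.00863). In all, 3 of 6 tested neighbours passed, 2 higher and 1 lower, against 60.2% of all tested genes (25.5% higher, 34.8% lower), with a median of 0.26 against -0.08. The other 8 of 14 neighbours on the array, among them IFNB1, IFNE, DMRTA1, ELAVL2 and CDKN2B-AS1, were below the filter in mean signal. CDKN2B-AS1, the antisense RNA of the locus, read 0.2 to 4.9 in Z-138 and 0.2 to 0.5 in Maver-1. Copy number was not measured on these arrays.

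**Figure D4:**
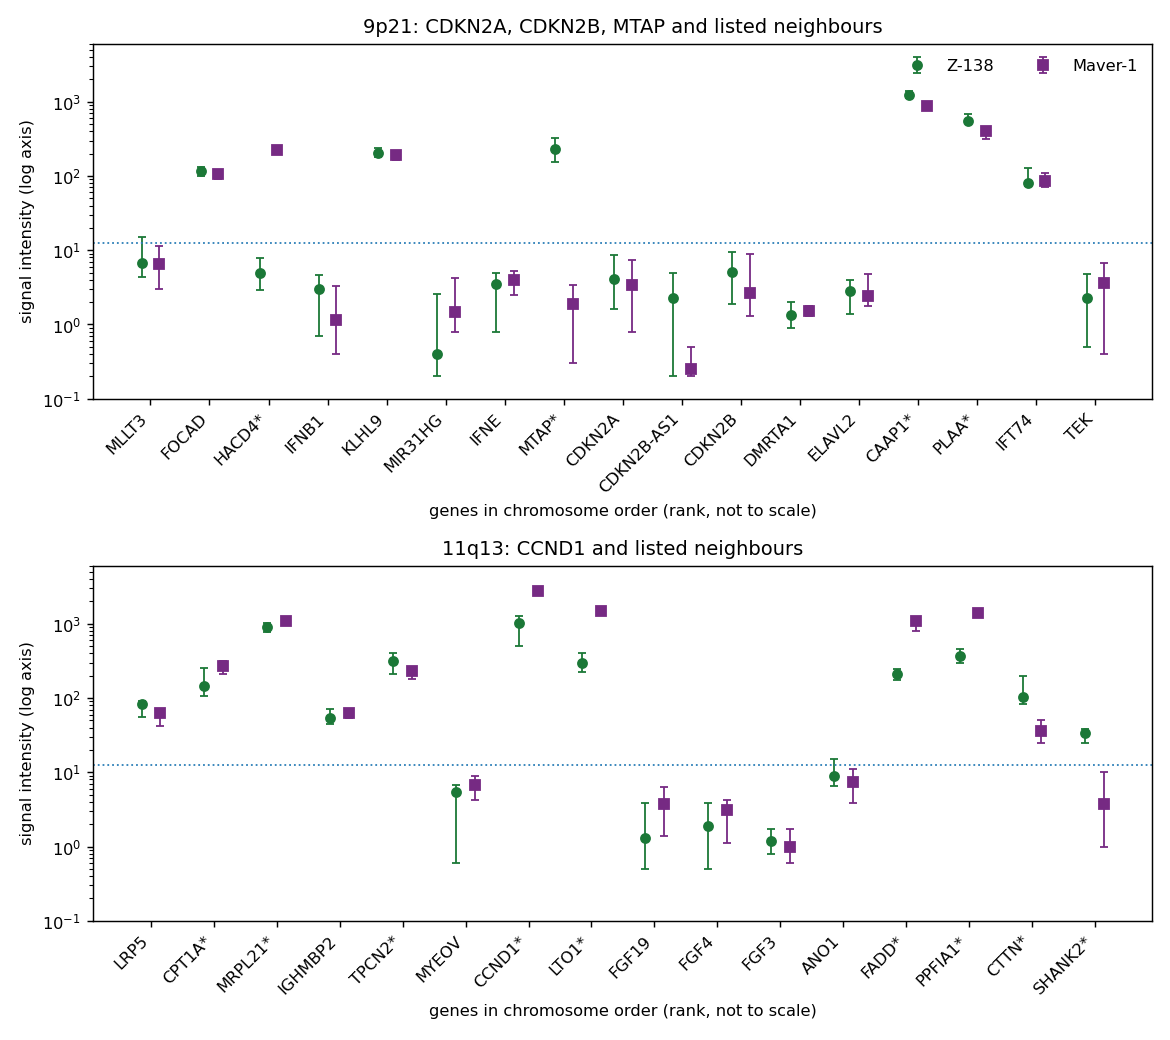
Signal intensity (vertical axis, log scale) of listed genes around MTAP and CDKN2A on chromosome 9 (top) and around CCND1 on chromosome 11 (bottom), in chromosome order but not to scale. Points are the median and bars the lowest and highest of the 6 arrays of each line, the dotted line is the filter at 12.55, and asterisks mark genes that passed between the untreated lines. MTAP and HACD4 lie at opposite ends of the scale in the 2 lines, and CCND1 (208712_at), LTO1, FADD and PPFIA1 are higher in Maver-1. Levels of different genes are not comparable.

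Around CCND1, genes on both sides of it differed between the lines. LTO1, the next gene, read 221.6 to 402.2 in Z-138 and 1343 to 1602.7 in Maver-1, with an untreated log2 difference of -2.36 ± 0.13 (limma, adjusted p = 3.85e-09). FADD, the adaptor of death receptors, read 176.1 to 245.2 and 801.6 to 1179.1 (-2.46 ± 0.11, adjusted p = 5.32e-10). PPFIA1, a liprin of cell adhesion sites, read 295.9 to 457.7 and 1338.3 to 1459.7 (-2.16 ± 0.10, adjusted p = 6.56e-10). These 3 differences had the direction of CCND1 by 208712_at. Beyond PPFIA1 the direction turned. CTTN, an actin-binding protein, read 82.2 to 200.1 in Z-138 and 24.7 to 50.5 in Maver-1 (1.52 ± 0.20, adjusted p = 2.13e-05), and SHANK2, a scaffold protein of synapses, read 25.1 to 38.8 and 1 to 10 (2.64 ± 0.30, adjusted p = 6.46e-06), but SHANK2 passed the filter only through Z-138. On the other side CPT1A, which carries fatty acids into mitochondria, was lower in Z-138 (-0.93 ± 0.17, adjusted p = 0.000411), and there too the direction was mixed, with TPCN2, an ion channel of lysosomes, higher by 0.36 ± 0.11 (adjusted p = 0.0133). Of 10 tested neighbours 3 were higher and 5 lower in Z-138, against 25.5% and 34.8% of all tested genes, with a median of -0.28. The 5 others of the 15 on the array, MYEOV, FGF19, FGF4, FGF3 and ANO1, were below the filter in mean signal.

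The other genes of the RB pathway showed a difference between the lines at about the rate of all genes. Of 33 tested genes of 34 listed, 11 were higher and 9 lower in untreated Z-138, and the median log2 difference was 0.04 against -0.08 over all genes. The inhibitors of the CIP/KIP family were among the higher ones, with CDKN1C at 2.73 ± 0.09, CDKN1A at 2.11 ± 0.13 and CDKN1B at 0.90 ± 0.07 (limma, adjusted p = 4.07e-11, 2.01e-08 and 1.02e-07). CDC25A, the phosphatase that activates CDK2, and GSK3B, a kinase that marks cyclin D1 for destruction, were higher by 1.05 ± 0.10 and 0.81 ± 0.10, and E2F5, a repressing E2F, was lower at -1.64 ± 0.12 (adjusted p = 1.18e-06, 8.61e-06 and 6.31e-08). Of 27 tested E2F target genes of 29 listed, 5 were higher and 9 lower, against 25.5% and 34.8% of all tested genes, with a median of -0.10. The helicase subunit gene MCM4 was higher in Z-138 by 0.78 ± 0.11 (limma, adjusted p = 3.2e-05). MCM5, MCM2 and MCM7 of the same complex were lower at -0.68 ± 0.12, -0.38 ± 0.09 and -0.23 ± 0.07 (limma, adjusted p = 0.000364, 0.0029 and 0.0087). Its subunits MCM3 and MCM6 were not called, so MCM4 alone was called higher. GINS2 and TYMS were lower at -0.52 ± 0.08 and -0.29 ± 0.07, and RBL1, a relative of RB1, was higher by 0.44 ± 0.08 (adjusted p = 0.000123, 0.00181 and 0.000435). Some genes, CDC25A and RBL1 among them, stand on both lists.

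None of the RB pathway or E2F target genes passed in any doxycycline comparison. Over the 4 NIKsh cultures 23 of 27 E2F target genes had log2 changes below 0, where 48.3% of all tested genes did, with a median of -0.06 against 0.01. Those with the smallest p were MYBL2, a cell cycle transcription factor, at -0.35 ± 0.12, and TK1, a thymidine kinase, at -0.41 ± 0.16 (limma, adjusted p = 0.401 and 0.45), while CCNE1, the cyclin that activates CDK2, was at 0.30 ± 0.12 (adjusted p = 0.45). In the Maver-1 NIKsh cultures 21 of 27 were below 0, where 52.2% of all tested genes were. In the Z-138 NIKsh cultures 14 of 27 were, where 45.6% of all tested genes were. For NIKsh minus NTC, 15 of 27 were below 0, where 54.1% of all genes were. MYBL2 was at 0.39 ± 0.17 in the NTC cultures and at -0.74 ± 0.21 for NIKsh minus NTC (adjusted p = 0.895 and 0.876). Of the RB pathway genes 19 of 33 were below 0 in the NIKsh cultures, with a median of -0.03. Its smallest p-values there belonged to E2F7, a repressing E2F, at 0.24 ± 0.08, and CCNE1 (adjusted p = 0.363 and 0.45), and in Maver-1 NIKsh to CDKN1C at 0.68 ± 0.15 (adjusted p = 0.599). Between untreated NIKsh and NTC cultures, 0 of 6 members passed and 0% of all genes did (552 at an unadjusted p under 0.05), with CDK6 at -0.43 ± 0.20 and CCND1 at 0.20 ± 0.09 (limma, adjusted p = 0.989 for each).

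Likeness of pattern was measured as Pearson's r of log2 signal within a line (each array minus the mean of its line) over the 12 arrays, whose pairs share a culture and whose values share array quality. The 3 genes most like CDK6 were LEF1, a transcription factor of the Wnt pathway, at 0.967, TUBB4B, a tubulin, at 0.959, and CSRP2, a LIM domain protein, at 0.95. Those most like CCND1 were ESYT1 (0.962), ARHGAP11A (0.952) and ANKRD6 (0.945), and those most like CCND3 were KCTD5 (0.976), RRP7A (0.956) and DOT1L (0.955). CDK4 was most like USP5 (0.946), CDK18 (0.922) and MYBL2 (0.922), RB1 most like PAN3-AS1 (0.918), PPP1R15B (0.909) and KLHL8 (0.888), and MTAP most like ZBTB42 (0.865), H2AZ2 (0.864) and BPHL (0.843). The MTAP values rest in part on Maver-1 signals of 0.3 to 3.4, far under the filter, and the CCND1 values on 208712_at alone. Among the members, CDK6 had r of 0.637 with CDK4 and -0.744 with RB1. These are descriptions over few arrays, picked as the highest of all tested genes.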

How the data were processed

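The deposited values are signal intensity per probe set on a linear scale, and the submitters' processing notes name MAS5. Every array had the same mean signal, 150.02, without the lowest and highest 2% of probe sets, so the authors had scaled them. Of 54675 probe sets, 41097 had 1 symbol in the platform annotation (41091 without 6 control probe sets), 1801 had several and 11777 none there. Signals were taken to log2(signal + 3), which understates changes of low genes. A gene was represented by its probe set of highest mean log2 signal, and genes with a mean signal under 12.55 were left out, which kept 11548 of 19775. Detection calls were not used here.

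limma 3.58.1 in R 4.3.3 was fitted with an intensity trend, culture as a block because the cells of a culture were split between doses, and Benjamini-Hochberg adjustment over all tested genes at 0.05. A first fit had 1 doxycycline effect for the NIKsh and 1 for the NTC cultures. A second had 1 per line and knockdown, and the 6 untreated arrays were compared between lines and constructs. A further fit took every probe set with 1 symbol, without the filter. The scripts were tested on simulated data. Arrays of a hairpin deviated together at r = -0.038 in Z-138 and 0.202 in Maver-1 across genes. The number of arrays limits precision.

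The members, gene lists and tests were chosen with earlier results of these data known. Named are all members with every probe set, MAP3K14, up to 6 called genes of the RB pathway and E2F lists by p (or up to 3 as values), up to 6 called neighbours by size, and the 3 genes most like each member. The other MCM subunits are named beside MCM4 and MCM5. Alternatives were the pseudocount, filter, probe set rule, normalization, block, ACTB ratio and left-out cultures. Python 3.11.15, pandas 2.3.3, scipy 1.17.1 and matplotlib 3.10.9 made the tables and figures.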

Additional observations from a re-analysis of the deposited data

Results flagged for a closer look

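The NIKsh minus NTC doxycycline effect on CDK6 was not called over both lines (limma, adjusted p = 0.876). Taken within Z-138 alone, in a comparison added after the data were seen, it passed the threshold narrowly. There it was -3.167 ± 0.55 on the log2 scale (limma, adjusted p = 0.0477), and in Maver-1 it was -0.97 ± 0.55 (adjusted p = 1). Each line has 1 NTC culture, so its own spread could not be measured, and whether the value differs between the lines was not tested. In Z-138, 0.589% of all tested genes were called in the same comparison and in Maver-1 0%. Over every probe set the Z-138 value was not called (adjusted p = 0.14).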

How the results depend on the processing

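The number of arrays, with 1 NTC and 2 NIKsh cultures per line, limits every doxycycline value, and the lone sample left by a left-out culture is assumed to vary like the others. The count of members called in Z-138 NIKsh cultures, 1 in the report, was 0 with a pseudocount of 1, with no filter, with a filter at the 75th percentile, with the mean of probe sets, with the ACTB ratio as covariate and over every probe set, and 0 to 2 over all alternatives (1 to 2 with each culture left out, but without Z-138 NIKsh#1 the 1 was CCND1 and CDK6 was not called, with adjusted p = 0.0857). For NIKsh minus NTC it was 1 with Z-138 cultures alone, and for Z-138 minus Maver-1 NIKsh it was 0 to 1 with each culture left out. Between the untreated lines it was 3 to 5. Culture as a random replicate block gave CDK6 in Z-138 NIKsh an adjusted p of 0.028 and no replicate block one of 0.0387, and neither changed a call on a member. For NIKsh minus NTC the CDK6 adjusted p was 0.0781 without the replicate block. Counts over all genes moved more: 0 to 197 for the NIKsh cultures (5 in the main setting), 0 to 918 for Z-138 NIKsh (247), 0 to 42 for Maver-1 NIKsh (0), 0 to 423 for the line difference in NIKsh (14), 0 to 68 for NIKsh minus NTC (0), 0 to 108 for untreated NIKsh minus NTC (0), and 4770 to 7126 between the lines (6956). Under the alternatives run on the genes no called member value changed sign, but the CCND1 line difference is -1.41 by the probe set that stands for it and 0.66 by its other one. MTAP has no value with the filter at the 75th percentile, because its mean signal lies under it.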
